A study of Mus musculus with 8 samples.

Results

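Genes for the nuclear-encoded subunits of oxidative phosphorylation were followed in purified mouse brain vessels before and after digestion of the basal lamina. Members were taken by name: symbols of the Ndufa, Ndufb, Ndufc, Ndufs and Ndufv series, Sdha to Sdhd, and symbols that begin with Uqcr, Cox4 to Cox8 or Atp5, leaving out assembly factors, Ndufa4l2 and pseudogenes. This gave 77 genes of the 22180 that the array measured under a single symbol, each represented by the transcript cluster (probe set of a gene) with the highest mean, and 75 of them lay above a background floor that 16217 genes passed. By complex, 31 belonged to complex I, 4 to complex II, 7 to complex III, 18 to complex IV (Ndufa4 among them, which despite its name is a complex IV subunit) and 17 to complex V. Both members below the floor were complex IV isoforms known from testis. Cox7b2 averaged 2.73 undigested and 2.72 digested, and Cox8c 3.92 and 3.78, against a floor of 4.68.

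Vessels came from male C57Bl6 mice aged 2 months, with no transgene. Undigested vessels were purified after mechanical homogenization of the brain. Digested vessels were purified after a warm incubation with DNAse and the protease mixture Liberase in place of homogenization, although the tissue label calls all the samples mechanically extracted. Per the study's methods, each of the 4 libraries per group held vessels pooled from several mice and was hybridized to 1 Affymetrix Mouse Gene 2.0 array, so the p-values speak only of how such pools vary, and 4 arrays per group limit the precision. The study sought transcripts lost from vessels together with astrocyte endfeet, the tips of astrocyte processes that coat vessels. Removal of endfeet, incubation and dissociation changed together and cannot be told apart. Levels are log2 array values and differences are digested minus undigested. A gene passed at an adjusted p of 0.05 (limma, Benjamini-Hochberg over all clusters above the floor). In bulk RNA, fewer cells of a type and less RNA per cell cannot be told apart. Probes differ in brightness, so a level served to choose a gene's cluster and which genes to name, and levels of different genes were not otherwise compared.

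Oxidative phosphorylation takes place in the inner mitochondrial membrane. Complexes I and II feed electrons into the chain, complex III passes them to cytochrome c, complex IV hands them to oxygen, and complex V, the ATP synthase, uses the proton gradient built by complexes I, III and IV. Most subunits are encoded in the nucleus and a few in mitochondrial DNA, and several complex IV subunits exist as a ubiquitous isoform and a tissue-restricted one. Brain endothelium and the choroid plexus epithelium, which secretes cerebrospinal fluid, are known for their many mitochondria.

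Upon digestion, 64 of the 75 members above the floor rose, 0 fell and 11 did not pass. Of all 16217 genes, 14.4% rose and 9.04% fell. At an unadjusted limma p under 0.05, 1 member (Cox4i2) was lower. The methods' t-test gave 59 raised members (11.6% of all genes rose by it) and 0 lowered members after the same adjustment. The median difference over the members was 0.65 (1.57-fold), with quartiles at 0.46 and 0.83, and the range ran from -0.42 for Cox4i2 to 2.61 for Cox8b. Over all genes the median was 0.02. Every digested array lay above every undigested array for 66 members, against 17.8% of all genes, and for 0 members did every digested array lie below, against 11.9%. A difference above 0 was found for 70 members, against 54% of all genes. A rise of at least 2-fold was met by 10 members, against 1.33% of all genes: Ndufa1, Ndufa11, Cox4i1, Cox6b2, Cox7a1, Cox7b, Cox8b, Atp5e, Atp5md and Atp5mpl. A fall of that size was met by 0 members, against 1.41% of all genes.

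The increase was small beside that of Cox8b but stood clear of the replicate spread, with a median SD over members of 0.15 among undigested and 0.13 among digested arrays. Centred on each gene's undigested mean, the median member level was -0.08, -0.09, 0.09 and 0.07 on undigested arrays 1 to 4, and 0.60, 0.51, 0.67 and 0.72 on digested arrays 1 to 4. All the digested arrays lay above all the undigested ones, and among the undigested arrays 3 and 4 lay above 1 and 2. No label names that split. Within numbers 1 and 2 the digested arrays were higher by 0.64, and within numbers 3 and 4 by 0.67. Without undigested arrays 1 and 2, 48 members rose (4.43% of all genes rose in that fit). Without undigested arrays 3 and 4, 62 members did (12.5% of all genes).

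Markers of other cells moved on the same arrays. Of 16 choroid plexus epithelium markers above the floor, 13 rose, with a median difference of 1.34, and the mean level of the list ran from 8.34 to 9.24 on undigested and from 9.74 to 10.37 on digested arrays. Of 20 endothelial markers 12 fell (median -0.47), of 15 astrocyte markers 12 fell (median -1.24), of 11 pericyte markers 9 fell (median -0.84) and of 7 markers of ciliated ependyma 3 fell (median -0.52). Of 10 neuronal markers 4 rose (median 0.45), and of 12 smooth muscle markers 2 rose (median 0.61). Over all genes 14.4% rose and 9.04% fell, and the smooth muscle count lay near the former share. The mean level of the smooth muscle list was 10.56 and 10.52 on digested arrays 1 and 2. On digested arrays 3 and 4 it was 9.65 and 9.82, near the undigested range of 9.37 to 9.64. Undigested arrays 3 and 4 lay above 1 and 2, as for the subunit genes, in the mean levels of the choroid plexus (8.47, 8.34, 9.24 and 9.22 on arrays 1 to 4), astrocyte (8.56, 8.57, 8.96 and 8.95), ependyma (7.86, 7.88, 8.31 and 8.31), neuron (7.60, 7.66, 7.96 and 8.01) and smooth muscle lists (9.37, 9.41, 9.64 and 9.49), and below them in the endothelial (10.78, 10.80, 10.54 and 10.41) and pericyte lists (9.73, 9.79, 9.67 and 9.56). This split was thus shared by lists that rose and lists that fell on digestion. The part of these cell types in the subunit gene differences was not tested.

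**Figure D1:**
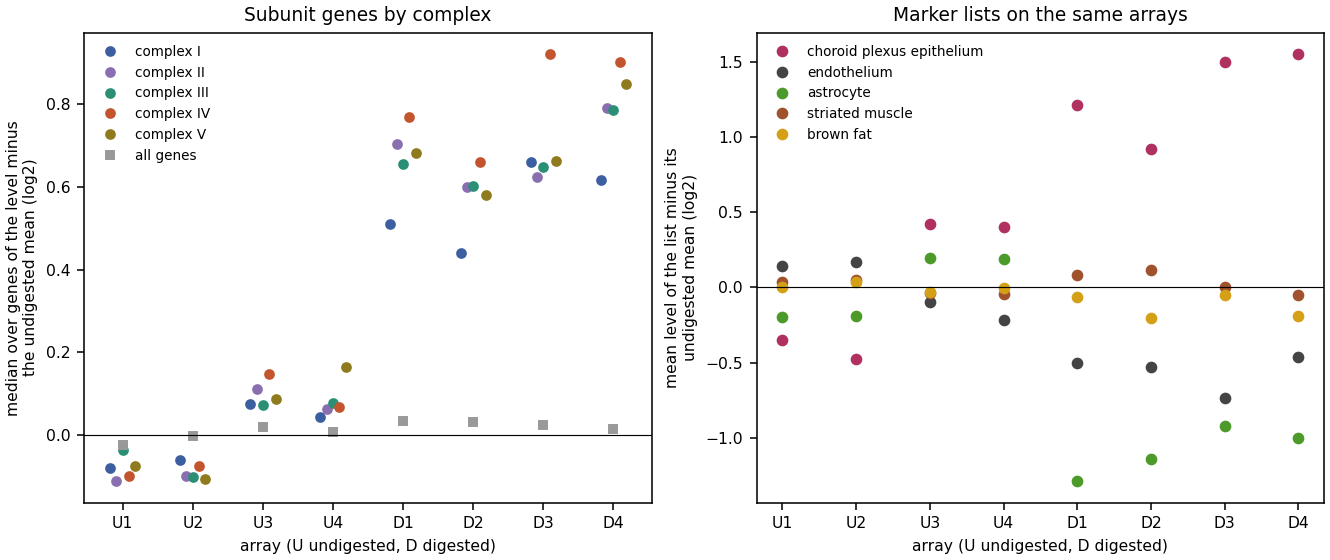
Left: for each array, the median over the genes of each complex, and over all genes (grey squares), of the level minus the gene's undigested mean (log2). Right: mean level of 5 marker lists minus their undigested mean (log2) on the same arrays. On digested arrays the medians of all the complexes lie above those of every undigested array, while the all-gene median stays near 0; the choroid plexus and astrocyte lists are both higher on undigested arrays 3 and 4 than on 1 and 2, and on the digested arrays the former is higher and the latter lower.

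In complex I, 28 of 31 members rose, with a median of 0.56, and 2 of them by at least 2-fold. The core subunits that carry the flavin and iron-sulfur clusters were Ndufv1, Ndufv2, Ndufs1, Ndufs3, Ndufs7 and Ndufs8, and all 6 rose, by 0.38 to 0.87. Ndufs8 had levels of 7.97, 8.02, 8.14 and 8.15 on undigested arrays and 8.96, 8.74, 8.97 and 9.07 on digested arrays, a rise of 0.87 (SE 0.09, limma adjusted p = 0.00082). Ndufv1, which binds NADH, rose from 8.18 ± 0.13 to 8.62 ± 0.04 (mean ± SD, n = 4). The median was 0.49 in the core and 0.56 over the accessory subunits, of which 22 of 25 rose.

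Among the accessory subunits, Ndufa11, a membrane-arm protein, and Ndufa1, a small single-pass protein, showed the highest differences. Ndufa11 stood at 8.43, 8.46, 8.93 and 8.77 undigested and at 9.90, 9.96, 9.99 and 10.24 digested (1.38, SE 0.13, limma adjusted p = 0.000553), but a second, dimmer cluster of the gene gave 0.37 and did not pass. Ndufa1 stood at 7.61, 7.43, 8.14 and 8.17 undigested and at 9.15, 8.86, 9.23 and 9.33 digested (1.30, SE 0.18, limma adjusted p = 0.00208). In both genes undigested arrays 3 and 4 were the higher ones of their group, and no undigested array reached a digested one. Ndufb9, also of the membrane arm, rose from 9.81 ± 0.11 to 10.52 ± 0.05 (n = 4). Ndufa5 (0.26), Ndufa7 (0.37) and Ndufs5 (-0.27) did not pass, and their groups overlapped. Ndufs5 stood at 5.77, 5.83, 5.93 and 5.46 undigested and at 5.43, 5.77, 5.28 and 5.45 digested, while a further cluster that the array shares between Ndufs5 and a pseudogene rose by 0.44, so the gene's direction depends on the probes read.

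Complex II, which is also succinate dehydrogenase of the citric acid cycle, showed different sizes of change between its parts. The membrane anchors Sdhc and Sdhd rose by 0.89 and 0.83, and the iron-sulfur subunit Sdhb by 0.56. Sdha, the catalytic flavoprotein, stood at 9.94, 10.05, 10.17 and 10.17 undigested and at 10.23, 10.21, 10.41 and 10.49 digested. Its groups did not overlap, and its difference of 0.25 (SE 0.10) did not pass (limma adjusted p = 0.0965).

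Complex III was the complex with all its measured members raised, 7 of 7, and with a narrow range of 0.49 to 0.80. The large core proteins Uqcrc1 and Uqcrc2 rose by 0.54 and 0.49, and the Rieske iron-sulfur protein Uqcrfs1 by 0.70. The small subunits Uqcrb, Uqcrh, Uqcrq and Uqcr11 rose by 0.66 to 0.80, Uqcrb from 10.15 ± 0.07 to 10.82 ± 0.09. A further, dimmer cluster that Uqcrb shares with Gm10767 gave 0.12 and did not pass. Uqcrq stood at 6.08, 5.85, 6.05 and 5.93 undigested and at 6.68, 6.64, 6.66 and 7.11 digested, with digested array 4 set apart from the other digested arrays.

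Complex V had 14 of 17 members raised, 3 of them by at least 2-fold, and a median of 0.70. In the catalytic F1 head, Atp5a1 and Atp5b (alpha and beta) rose by 0.47 and 0.58, Atp5d by 0.82 and Atp5e by 1.27. Atp5c1 (gamma, the central shaft) had a difference of 0.12 that did not pass. Atp5e, the epsilon subunit, stood at 6.87, 6.90, 7.13 and 6.86 undigested and at 8.21, 8.07, 8.24 and 8.34 digested (SE 0.10, limma adjusted p = 0.000256), although its second cluster gave 0.24 and did not pass. In Atp5d the second cluster gave a larger difference than the brighter one, 1.38. Head subunits thus ranged from no call to more than 2-fold within a single assembly.

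In the peripheral stalk, Atp5pb, Atp5h and Atp5j rose by 0.76, 0.92 and 0.40, while Atp5o, with 0.32, did not pass and did not overlap (5.68, 5.63, 5.73 and 5.36 undigested, 5.79, 6.01, 5.84 and 6.06 digested). A second cluster of Atp5h gave 0.01. The small membrane subunits Atp5k, Atp5l, Atp5md and Atp5mpl, of which the first pair takes part in dimerization of the enzyme, rose by 0.79 to 1.36, and Atp5j2, of the same group, gave -0.06. Atp5mpl, the 6.8-kDa proteolipid, stood at 7.45, 7.45, 7.39 and 7.80 undigested and at 8.80, 8.49, 9.09 and 9.14 digested (1.36, SE 0.16, limma adjusted p = 0.00108). Atp5md, the subunit also called DAPIT, stood at 9.60, 9.72, 9.93 and 10.06 undigested and at 11.17, 10.87, 11.27 and 11.32 digested (1.33, SE 0.13, limma adjusted p = 0.000651). Both were higher on every digested array than on any undigested array. Atp5j2 stood at 5.69, 5.78, 5.10 and 5.70 undigested and at 5.66, 5.42, 5.49 and 5.43 digested, and undigested array 3 was its lowest.

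**Figure D2:**
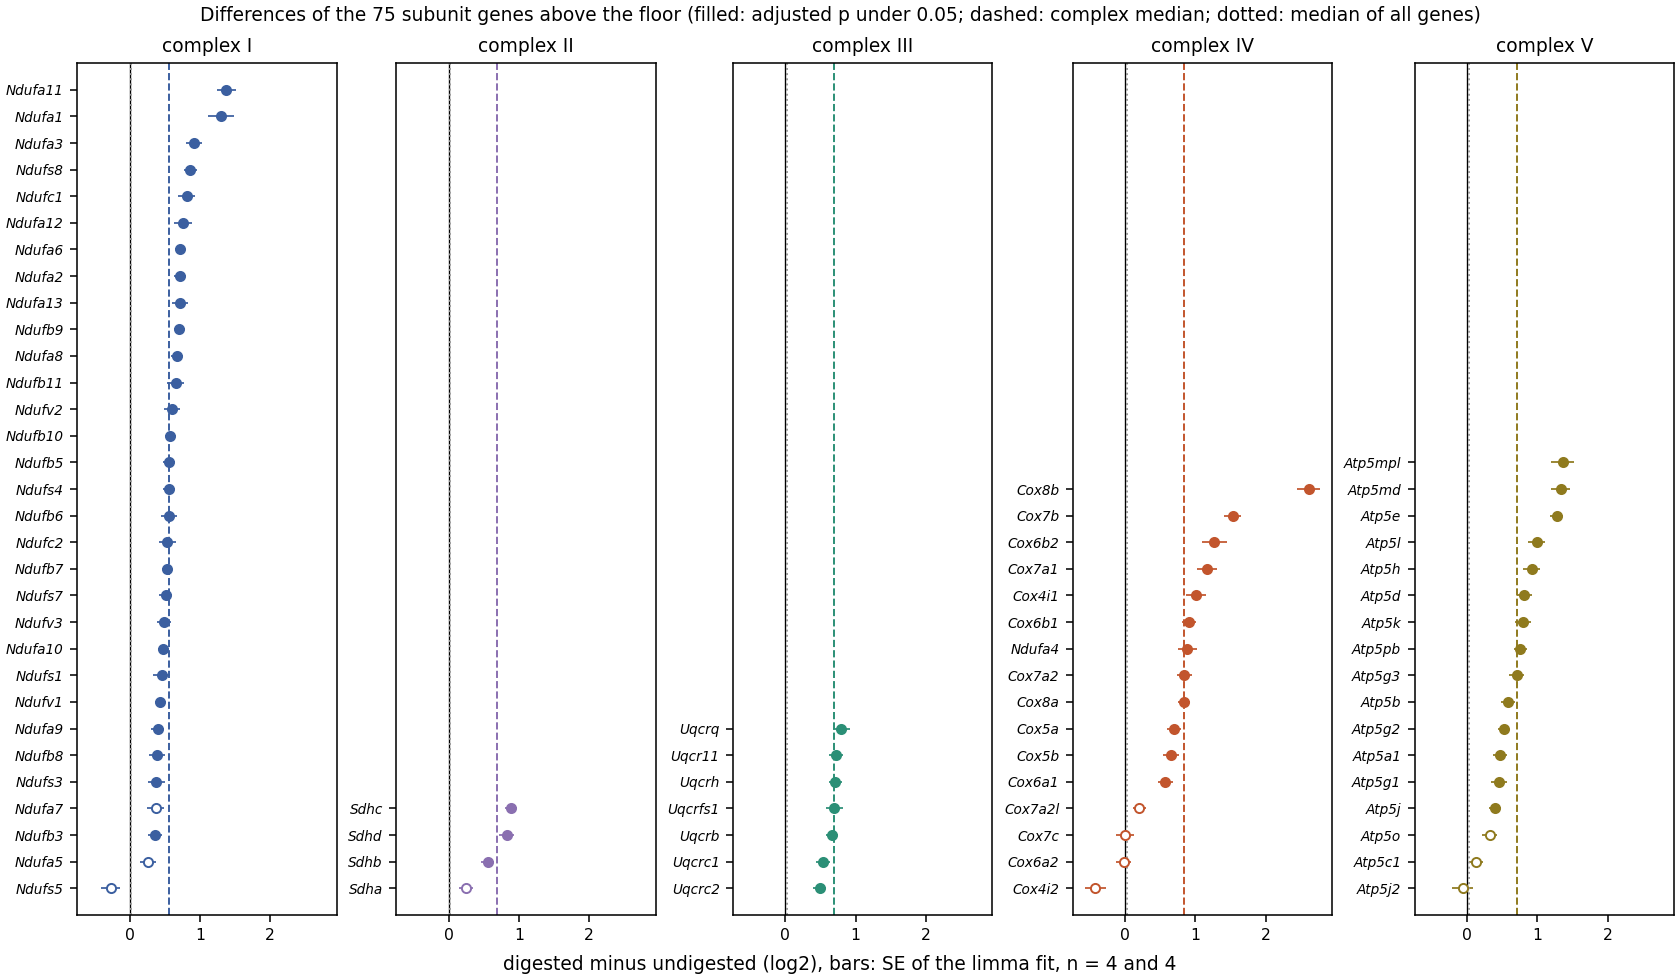
Difference between digested and undigested vessels (log2) for each of the 75 members above the floor, in a panel per complex, with the SE of the limma fit (n = 4 and 4). Filled points passed at an adjusted p under 0.05, the dashed line is the median of the complex and the dotted line the median of all genes. Cox8b, at 2.61, lies apart from the other members, and the open points lie at or below 0.37.

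In complex IV, 12 of 16 members above the floor rose, 5 of them by at least 2-fold, and the median was 0.84. The members ranged from -0.42 to 2.61, wider than in any other complex. Several of its subunits have isoforms, and these moved by different amounts. Cox8b, the Cox8 isoform that in mice is known from heart, skeletal muscle and brown fat, stood at 5.29, 5.14, 5.62 and 5.36 on undigested arrays and at 8.22, 7.72, 7.67 and 8.26 on digested arrays. Its mean thus went from 5.35 ± 0.20 to 7.96 ± 0.32 (SD, n = 4), a difference of 2.61 (SE 0.16) or 6.12-fold. The undigested levels lay within 1 log2 unit of the floor and the groups were far apart. Cox8b was singled out with its change already known, so this is a description.

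Cox8a, the ubiquitous isoform, stood at 10.11, 10.11, 10.29 and 10.26 undigested and at 11.05, 10.87, 11.13 and 11.07 digested, a rise of 0.84 (SE 0.09, limma adjusted p = 0.000778). Within each array, Cox8b minus Cox8a moved from -4.84 ± 0.13 to -3.07 ± 0.31 (SD, n = 4), so Cox8b gained on Cox8a by 1.77, or 3.42-fold. Leaving out each array in turn, the Cox8b difference lay between 2.51 and 2.71, and it was 2.47 without undigested arrays 1 and 2.

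Most markers of the tissues in which Cox8b is best known lay below the floor or did not pass. Over all genes above the floor, 14.4% rose and 9.04% fell. Of 17 striated muscle markers, Actc1, Myh1, Myh4 and Mylpf lay below the floor. Of the remaining 13, 1 rose (Myh7, 0.59), 1 fell (Tnni3, -0.53) and 11 did not pass, with a median of 0.05 and a list mean of 5.60 to 5.69 undigested and 5.60 to 5.76 digested. Of 8 brown fat markers, Adipoq, Elovl3 and Fabp4 lay below the floor, Dio2 fell by 0.79 and the other 4 did not pass. Ucp1, the uncoupling protein that defines brown fat, had means of 4.95 undigested and 4.93 digested, close to the floor.

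The genes above the floor whose pattern over the 8 arrays was most like that of Cox8b were Prr32, Frmpd1os, Olfr574, F5 and Fos. Likeness was the root mean square difference between values centred on each gene's own mean, and was 0.24, 0.36, 0.44, 0.48 and 0.48 in that order. Prr32 stood at 6.34, 6.09, 7.18 and 6.77 undigested and at 9.37, 8.93, 9.39 and 9.53 digested. The undigested mean of Frmpd1os, 4.67, lay just below the floor, and its digested mean was 6.81. F5, coagulation factor V, is on the choroid plexus list used here, and Fos is an immediate early gene. All 5 were chosen by a measure that the group difference dominates.

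Cox7a1, known as the heart and skeletal muscle isoform, was raised too. It stood at 5.89, 5.99, 6.25 and 6.09 undigested and at 7.01, 7.04, 7.24 and 7.59 digested (1.17, SE 0.14, limma adjusted p = 0.00116). The liver-type isoform Cox7a2 rose by 0.84 (SE 0.11), and within arrays Cox7a1 minus Cox7a2 grew by 0.32 (two-sided exact permutation p = 0.0286 over the 70 assignments of 4 against 4 arrays, the smallest p they can give, and 0.0667 adjusted over the 7 pairs tested). Cox7a2l, a related protein that takes part in respiratory supercomplexes, had a difference of 0.21 that did not pass. Cox7a2l minus Cox7a2 changed by -0.64 within arrays (exact permutation p = 0.0286, adjusted 0.0667). After adjustment no pair of isoforms passed 0.05, and a single pair at the smallest p could not have done so among 7.

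Cox6a2, the other muscle isoform of the complex, differed from Cox8b and Cox7a1 in its values. It stood at 5.91, 5.73, 5.46 and 5.55 undigested and at 5.68, 5.72, 5.60 and 5.57 digested, with overlapping groups and a difference of -0.02 (SE 0.11, limma adjusted p = 0.93). The ubiquitous Cox6a1 rose from 11.77 ± 0.13 to 12.35 ± 0.15 (0.57, SE 0.10), and Cox6a2 minus Cox6a1 changed by -0.59 (exact permutation p = 0.0571, adjusted 0.1). Cox6b2, known from testis, stood at 6.34, 6.23, 6.93 and 6.79 undigested and at 7.82, 7.58, 7.91 and 8.07 digested (1.27, SE 0.17, limma adjusted p = 0.00182). The ubiquitous Cox6b1 rose by 0.90 (SE 0.10), and the pair changed by 0.37 in favour of Cox6b2 (exact permutation p = 0.114, adjusted 0.133).

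Cox4i2, an isoform known for its response to oxygen and found in lung and in pericytes, was the member with the lowest difference. It stood at 6.46, 6.81, 6.0 and 6.34 undigested and at 6.07, 5.94, 6.04 and 5.89 digested (-0.42, SE 0.15, limma adjusted p = 0.0805). The groups overlapped through undigested array 3 alone, and without that array the difference was -0.55 and passed. It was -0.28 without undigested array 2 (limma adjusted p = 0.158) and -0.19 without undigested arrays 1 and 2 (0.384), and did not pass there. The ubiquitous Cox4i1 rose from 8.87 ± 0.30 to 9.87 ± 0.08 (1.00, SE 0.14, limma adjusted p = 0.00219). Cox4i2 minus Cox4i1 moved from -2.05, -1.91, -3.13 and -2.77 to -3.84, -3.81, -3.90 and -4.00, a change of -1.42 with no overlap (exact permutation p = 0.0286, adjusted 0.0667). Pericyte markers moved down on the same arrays, with 9 of 11 passing, and their part in the Cox4i2 values was not tested.

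Of the subunits without a tissue isoform above the floor, Cox7b showed the largest rise. It stood at 6.97, 6.61, 7.09 and 6.94 undigested and at 8.55, 8.18, 8.47 and 8.52 digested (1.53, SE 0.13, limma adjusted p = 0.000362), while a second, dimmer cluster of Cox7b gave -0.11. Cox5a and Cox5b rose by 0.70 and 0.65 and Ndufa4 by 0.89. Cox7c stood at 5.86, 6.38, 6.08 and 6.13 undigested and at 6.18, 5.88, 6.26 and 6.10 digested, with equal means.

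The 3 genes Atp5g1, Atp5g2 and Atp5g3 encode the same mature c subunit of the ATP synthase ring. They rose by 0.46, 0.52 and 0.70. Atp5g1 minus Atp5g3 changed by -0.25 (exact permutation p = 0.0857, adjusted 0.12) and Atp5g2 minus Atp5g3 by -0.18 (exact permutation p = 0.171, adjusted 0.171), so no difference between these genes passed.

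**Figure D3:**
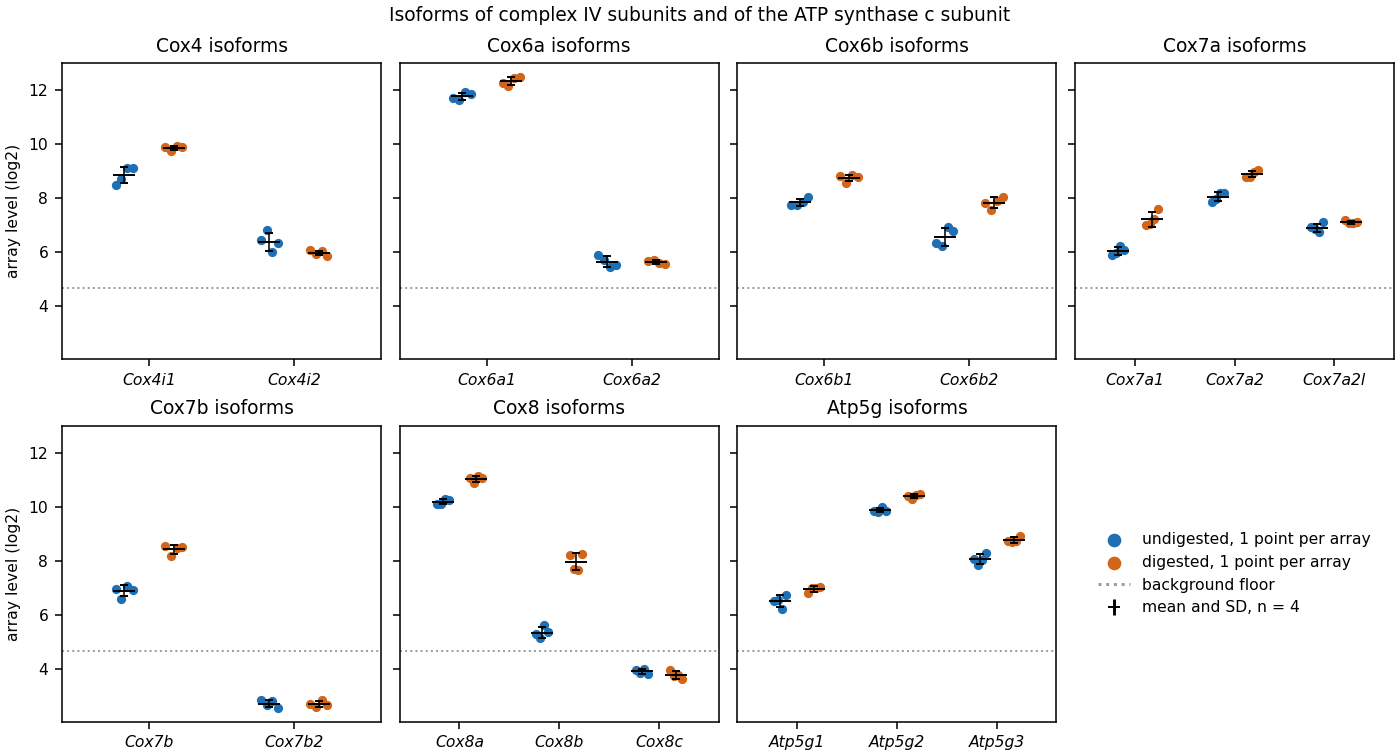
Array level (log2) of each isoform of 6 complex IV subunits and of the ATP synthase c subunit, 1 point per array, with mean and SD (n = 4). The dotted line is the background floor of 4.68. Cox8b goes from 5.35 to 7.96, Cox7a1 and Cox6b2 go up with their ubiquitous partners, Cox6a2 has overlapping groups, and Cox7b2 and Cox8c lie below the floor.

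Since the subunit genes moved together, the sequences before their start sites were read from RefSeq (build GRCm38.p6), where 64 of the 77 members had a window of 250 bases before to 50 after the start. The motifs were searched on both strands. The NRF1 motif GCGCATGC was found in 10 members (15.6%, against 3.05% of 27025 genes), the ETS or GABP motif CCGGAAG in 17 (26.6% against 9.93%) and the YY1 motif AAGATGGCG in 6 (9.38% against 1.64%). The ERR motif TNAAGGTCA was found in 2 (3.12% against 1.43%) and the E-box CANNTG in 45 (70.3% against 75% of genes). A match is a description of the letters and not of binding. All 10 members with the NRF1 letters, all 17 with the ETS letters and the 2 with the ERR letters rose. So did 5 of 6 with the YY1 letters and 38 of 45 with the E-box. Of all 64 members with a window 54 rose, so a rise was common whichever letters were read. The window of Cox8b held neither the NRF1 nor the ETS letters.

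The stretches from 180 bases before to 10 after the start are shown for both muscle isoforms that rose, for 2 ubiquitous subunits and for the complex I member with the highest difference, since they differ in these letters. Capitals mark matches to the motifs.
Cox8b, chr7:140900437-140900626, minus strand: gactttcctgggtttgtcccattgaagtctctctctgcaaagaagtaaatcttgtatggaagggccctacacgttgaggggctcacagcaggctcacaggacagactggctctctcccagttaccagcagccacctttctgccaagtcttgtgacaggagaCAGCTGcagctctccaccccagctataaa
Cox7a1, chr7:30183991-30184180, plus strand: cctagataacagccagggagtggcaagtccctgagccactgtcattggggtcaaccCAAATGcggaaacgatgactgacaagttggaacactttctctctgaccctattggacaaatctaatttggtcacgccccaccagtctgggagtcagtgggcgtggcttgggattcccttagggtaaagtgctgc
Cox8a, chr19:7217607-7217796, minus strand: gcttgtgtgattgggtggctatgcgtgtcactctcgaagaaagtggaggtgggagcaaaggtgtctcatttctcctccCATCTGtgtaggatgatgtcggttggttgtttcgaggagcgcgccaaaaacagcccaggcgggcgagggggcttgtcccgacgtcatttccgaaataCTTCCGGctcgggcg
Cox6a1, chr5:115348949-115349138, minus strand: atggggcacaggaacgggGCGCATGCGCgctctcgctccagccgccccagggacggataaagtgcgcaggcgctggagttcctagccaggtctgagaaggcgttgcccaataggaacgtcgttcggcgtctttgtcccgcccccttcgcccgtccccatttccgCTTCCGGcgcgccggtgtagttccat
Ndufa11, chr17:56717582-56717771, plus strand: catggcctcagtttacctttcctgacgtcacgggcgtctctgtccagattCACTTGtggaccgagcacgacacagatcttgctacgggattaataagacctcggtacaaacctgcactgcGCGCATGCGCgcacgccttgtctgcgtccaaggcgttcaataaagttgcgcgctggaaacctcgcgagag
In Cox8b the capitals are an E-box at position -19 from the start, and in Cox7a1 an E-box at -124. Cox8a held an ETS match at -5 and an E-box at -102. Cox6a1 held overlapping NRF1 matches on both strands at -162 and -160 and an ETS match at -16. Ndufa11 held overlapping NRF1 matches at -60 and -58 and an E-box at -130. These genes were picked for differing in these letters. Of the 64 members with a window, 42 held neither the NRF1 nor the ETS letters, so their absence from Cox8b and Cox7a1 is shared by most members.

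Other mitochondrial genes were read from lists made for comparison. Of 15 genes of the citric acid cycle and pyruvate dehydrogenase, 14 rose, with a median of 0.52. They were led by Idh3a, a subunit of isocitrate dehydrogenase, from 8.25 ± 0.32 to 9.48 ± 0.24 (1.24), Cs, citrate synthase (0.68), and Mdh2, malate dehydrogenase (0.62). Ogdh, of the oxoglutarate dehydrogenase complex, rose by 0.54, and Idh3g, with 0.27, did not pass. Most of these fuel-oxidizing enzymes thus rose as the subunit genes did.

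In the list of the electron carrier, inhibitors and metabolite carriers, 7 of 8 rose, with a median of 0.65. The adenine nucleotide carrier Slc25a5 rose by 0.90, Cycs, cytochrome c, by 0.77 and Higd1a by 0.74. Ndufa4l2, a paralog of Ndufa4 that is known from pericytes and hypoxia, had a difference of -0.44 that did not pass (limma adjusted p = 0.069), and testis Cyct lay below the floor. Of 38 assembly factors, which help to build the complexes but are not part of them, 17 rose, with a median of 0.27. Cox20, which handles a mitochondrially encoded complex IV subunit, rose by 1.07, Sdhaf4 by 0.85 and Lyrm7 by 0.60. The undigested mean of Lyrm7, 4.58, lay below the floor and its digested mean, 5.18, above it, so the size of its rise is uncertain.

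Of 15 regulators of mitochondrial genes 3 rose, with a median of 0.16, a count near the 14.4% of all genes that rose. They were the coactivator Ppargc1a, from 8.0 ± 0.33 to 8.83 ± 0.24 (0.83), and the estrogen-related receptors Esrrg (0.72) and Esrrb (0.48). The undigested mean of Esrrb, 4.94, lay close to the floor of 4.68, and its digested mean was 5.42. Nrf1, Gabpa and Yy1, whose motifs were searched, gave -0.25, 0.03 and 0.16 and did not pass, and neither did Tfam (0.12). The limma fit lowered 0 genes in these 4 lists after adjustment. At an unadjusted p under 0.05, Nrf1 and Gabpb1 among the regulators and Ndufa4l2 among the carriers were lower by limma, and the methods' t-test gave 2 and 1 in the same lists.

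Subunits encoded in mitochondrial DNA had differences near 0. Of 10 on the array, 0 passed in either direction by limma or by the methods' t-test, also at an unadjusted p under 0.05, and their differences ran from -0.07 to 0.04 with a median of -0.01. The 9 other than ND6 had group means of 12.69 to 13.40, near the top of the scale, where the lowest array maximum was 13.52, and a limit of the scale was not tested. ND4 stood at 13.40 ± 0.03 undigested and 13.38 ± 0.00 digested. ND6, which lies lower, stood at 10.20 ± 0.05 undigested and 10.20 ± 0.04 digested.

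**Figure D4:**
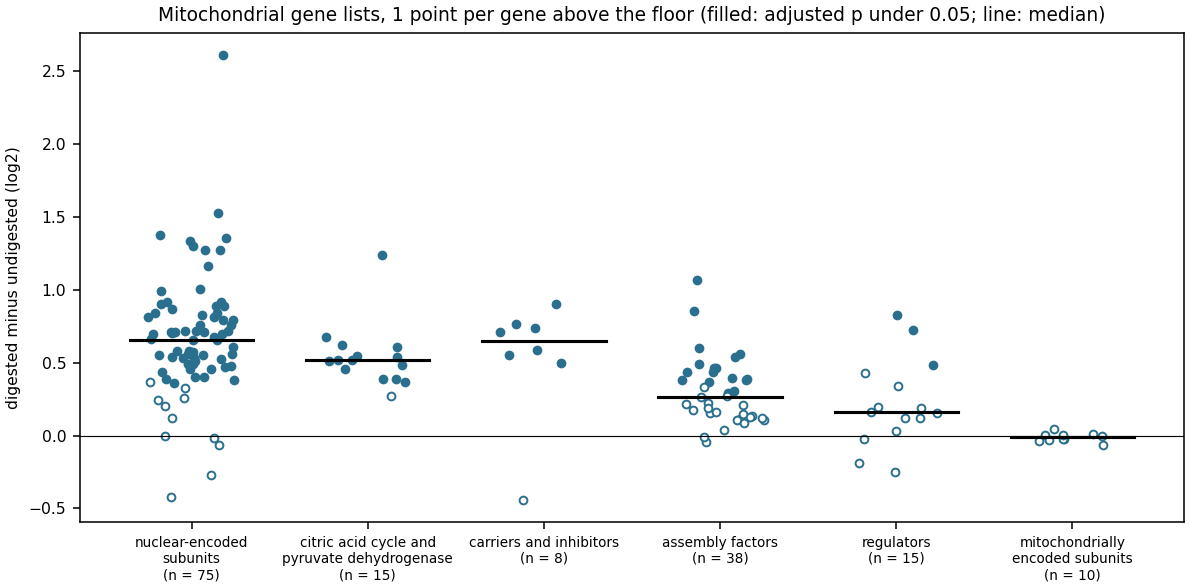
Difference between digested and undigested vessels (log2) of the 75 nuclear-encoded subunit genes and of 5 other mitochondrial lists, 1 point per gene above the floor, with the median as a line. Filled points passed at an adjusted p under 0.05. The medians are 0.65, 0.52, 0.65, 0.27, 0.16 and -0.01 from left to right, and the mitochondrially encoded subunits lie close to 0.

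Genes that the array reads only through clusters with several symbols were outside the count. Cox6c shares both of its clusters with Gm6265, and these rose by 0.92 and 0.51. Ndufs6, with Ndufs6b, rose by 0.88 and 0.49, Uqcr10 with Gm6293 by 0.86 and Ndufb2 with Adck2 by 0.64. The cluster of Ndufb4 and its copies gave 0.23 and did not pass. Uqcrb and Ndufs1, counted by clusters of their own, also share dimmer ones. The cluster of Uqcrb with Gm10767 gave 0.12 and that of Ndufs1 with Ino80dos -0.18, and neither passed. Members span short genes, with a median of 7.13 kb against 20.7 kb for all genes. Among the 3221 shortest genes, of up to 5.97 kb, the 30 members had a median difference of 0.72 and all genes one of -0.00. Among the 3220 next longer genes, of up to 14.7 kb, the 31 members had a median of 0.54 and all genes one of 0.04. This split was added after the data were seen.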

How the data were processed

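The arrays measured biotin-labelled RNA of 8 vessel preparations. Per their methods, the authors checked the arrays in Expression Console and analysed them in EASANA on FAST DB annotation, with antigenomic background correction and quantile normalization. What was deposited is a log2 level for each of 41345 transcript clusters on each array. The log2 scale was read from its range, and whether it carries that normalization is not stated. Array medians ran from 5.58 to 5.71, and no value was transformed further. Arrays correlated at r = 0.972 to 0.986 within undigested, 0.976 to 0.982 within digested and 0.946 to 0.962 between groups.

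Symbols came from the platform annotation (23521 clusters with 1 symbol, 1820 with several, 16004 with none), of which 23328 matched RefSeq by Entrez identifier, with 0 symbols changed. The floor was the 90th percentile of the means of 1400 olfactory and vomeronasal receptor clusters, 4.68, which kept 27658 clusters and left out 13687. Of the members, 9 had a second cluster.

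The fit used limma 3.58.1 (R 4.3.3), with eBayes after lmFit, 2 groups and two-sided p-values. Isoform pairs were compared within arrays by exact permutation. Figures and counts were made in Python 3.11.15 (numpy 2.4.6, pandas 2.3.3, scipy 1.17.1, matplotlib 3.10.9). The limma fit was tested on simulated data.

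The members, the marker and mitochondrial lists, the motifs and the isoform pairs were chosen with earlier results of these data known. In full were named Cox8b, every isoform group, members raised at least 2-fold, per complex those with the largest rise, the lowest difference and the highest level, and up to 3 genes per other list plus the most abundant.

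Alternatives were array centring (by the median, or by the endothelial markers), a further quantile normalization, a stricter filter or none, eBayes with trend and robust, array weights, a replicate block, the methods' t-test, averaging a gene's clusters, and leaving out each array. Leaving out undigested arrays 1 and 2, or 3 and 4, was added after the data were seen.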

Additional observations from a re-analysis of the deposited data

Results flagged for a closer look

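In 154 groups of 4 arrays (77 members in each group), 8 held an array whose gap to its nearest neighbour was a large share of the group's whole range (above Dixon's critical value for 4 arrays). Chance flags about 1 in 20 such groups. Digested array 4 stood highest for Ndufa9 (8.71, others 8.45 to 8.47) and for Uqcrq (7.11, others 6.64 to 6.68). Digested array 3 stood highest for Ndufv1 (8.67, others 8.59 to 8.60), and digested array 2 lowest for Ndufc1 (7.07, others 7.44 to 7.48). Undigested array 3 stood highest for Atp5e (7.13, others 6.86 to 6.90) and Atp5g2 (10.01, others 9.82 to 9.85) and lowest for Atp5j2 (5.10, others 5.69 to 5.78). Undigested array 4 stood highest for Atp5mpl (7.80, others 7.39 to 7.45).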

How the results depend on the processing

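Of the 64 raised members, 58 passed under each alternative they entered, the removal of a pair of arrays apart (Ndufb11 was left out by the stricter filter). The exceptions were Atp5g1, Ndufa9, Ndufb3, Ndufb8, Ndufs1 and Ndufs3, each of which lost the call when at least 1 array was left out. All 10 members raised at least 2-fold passed under these alternatives and without undigested replicates 1 and 2, and Cox8b ranged from 2.51 to 3.17, or 2.47 without that pair. Not all kept a rise of 2-fold. Averaging a gene's clusters gave 0.87 for Ndufa11, 0.71 for Cox7b and 0.76 for Atp5e, and Cox4i1 went down to 0.88 with an array left out. Members raised numbered 66 with median centring, where 16.6% of all genes rose. They numbered 73 with endothelial centring (78.7% of all genes) and 65 with a further quantile normalization (15.1%). They numbered 61 without a filter (12%), 65 of 71 with the stricter filter (19.1%) and 65 with trend and robust (14.7%). Array weights gave 64 (15.8%), the methods' t-test 59 (11.6%) and leaving out an array 58 to 64 (9.32% to 13.5%). Same-numbered arrays did not deviate together (correlations 0.06, 0.18, -0.04 and 0.18), and the replicate block gave 62 (12.9% of all genes). Endothelial centring moved the median difference to 1.21 over the members and to 1.12, 1.25, 1.25, 1.40 and 1.26 for complexes I to V. It also moved the median of all genes from 0.02 to 0.58, and 78.7% of all genes then rose. Centring shifts all genes of an array by the same amount. The members therefore stood 0.63 above that median under both scalings by arithmetic, which is no test of stability. The count of lowered members became 1 (Cox4i2) with array weights, without undigested replicate 3, and without undigested replicates 3 and 4. Members with a difference below 0 changed sign. With endothelial centring Atp5j2 gave 0.50, Cox4i2 0.14, Cox6a2 0.54, Cox7c 0.55 and Ndufs5 0.29. With a further quantile normalization Atp5j2 gave 0.0214, Cox6a2 0.0665 and Cox7c 0.0662, and with median centring Cox6a2 gave 0.0129 and Cox7c 0.0246. With an array left out, Atp5j2 ran from -0.2184 to 0.0079, Cox6a2 from -0.0828 to 0.0667 and Cox7c from -0.0897 to 0.0839. Without undigested replicates 1 and 2 they gave 0.10, 0.14 and 0.0013. Under centring these changes of sign come, by arithmetic, from the equal shift of all genes. For the other alternatives the cause was not tested. Precision is limited by 4 arrays per group, and levels near the floor of 4.68 or near the top of the scale can understate differences.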
